A study of Mus musculus with 17 samples.

Results

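Baseline gene expression in the apex of the left ventricle was described from 3 bulk RNA-sequencing libraries of the sham-operated, vehicle-treated mice (Sham Veh, labelled Sham_Saline), the libraries S5, S6 and S13. They are 3 of the 5 Sham Veh libraries and 3 of the 17 in the series. They were chosen by the measured level of Myl7: in these Sham Veh libraries Myl7, the atrial regulatory myosin light chain, had a normalised read count below 2 counts per 1000000 reads (CPM). Myl7 stood at 0.168, 0.761 and 0.0475 CPM in S5, S6 and S13, and the nearest libraries on the other side of the limit, S20 and S19, stood at 723 and 895 CPM. Because measured values made the choice, the low atrial transcripts of the 3 libraries describe the selection and nothing more. The study set transverse aortic constriction (TAC) against sham surgery and the oral integrin ligand 29P against vehicle. The mice of the Sham Veh group were male C57Bl6/J, had the operation without constriction at 7 to 8 weeks of age and received saline by gavage 6 times over 2 weeks from 1 week after it. The apex of the left ventricle was taken 3 weeks after surgery, its RNA was extracted with TRIzol, and polyA RNA was made into NEBNext Ultra II libraries. No group was compared with another here, and every value is a description of these libraries, given as mean ± SD with n = 3 unless the libraries are listed, always in the order S5, S6 and S13.

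The ventricular wall is made of large contractile cardiomyocytes, threaded by a dense capillary bed with pericytes and accompanied by fibroblasts, resident macrophages and a few other cells. A cardiomyocyte shortens when calcium released from the sarcoplasmic reticulum lets myosin pull on actin in the sarcomere, and relaxes when the SERCA pump takes the calcium back. The cost is met almost wholly by oxidative phosphorylation, fuelled largely by fatty acids, and part of each respiratory complex is encoded by the mitochondrion's own small genome. Many of the proteins involved exist as isoforms from separate genes, of which the adult mouse ventricle uses a characteristic set.

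The smallest non-zero values of a library mark what 1 read is worth, and by this measure the libraries held about 23.8, 22.3 and 21.0 times 1000000 reads. Only 80.4% to 82.1% of the values worth few reads came out whole within 0.02 reads, so read counts were not restored and no interval for counting error is given. At the limit used here for a detected gene, 0.5 CPM, a gene had between 10.5 and 11.9 reads. The limit was passed by 15060, 14670 and 15011 of the 21798 listed genes, and 14152 passed it in all 3 libraries, among them 12408 of 15688 protein-coding genes. A further 1550 genes passed in 1 or 2 libraries and 526 were listed at 0 in all 3. All 11 listed markers of ventricular cardiomyocytes were detected, and they summed to 60671, 50840 and 58309 CPM. In S19 and S20, where Myl7 was high, the sums were much the same, at 50799 and 62813 CPM. These markers therefore cannot tell whether atrial tissue is present, and the tissue label was not tested. Of the 6 atrial markers, whose low level follows from the choice of the libraries by Myl7, only Nppa, which stressed ventricle also makes, and Myl4, at 1.51, 1.03 and 0.951 CPM, reached 0.5 CPM in every library.

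Library S6 stood apart from S5 and S13, and its own value is given for many results. A mean ± SD given alone can still hold a shift of S6. Across genes with a mean of at least 1 CPM, Spearman's correlation was 0.987 between S5 and S13, 0.972 between S5 and S6 and 0.975 between S6 and S13 (13809, 13653 and 13643 genes, which are not independent replicates). At least a 2-fold difference was seen for 249, 984 and 893 genes in those pairs. S6 also had the largest share of mitochondrially encoded reads, which lowers every other gene on the CPM scale, and its median-of-ratios factor was 0.884 against 1.08 and 1.06, a shift of −0.18 on the log2 scale against 0.10 and 0.08. In S6 the median distance of a gene from its 3-library mean went from −0.06 in the shortest of 4 equal bins by transcript length (median 1295 bases) to −0.26 in the longest (median 6255 bases) on the log2 scale. In S5 it went from 0.00 to 0.16. The part of transcript length in the results below was not tested.

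Reads of the ventricle were concentrated on few genes. Ranked by mean CPM, the leading 36 genes held 50% of all reads, the leading 10 held 36.6% and the leading 100 held 55.95%. The number of genes needed for 50% was 60 in S5, 19 in S6 and 51 in S13, and 56 for the mean without S6. Without the mitochondrial genes and their nuclear copies, 621 genes were needed. A mean of at least 1000 CPM was reached by 53 genes, at least 100 CPM by 1013 and at least 10 CPM by 8109, and the median of the detected genes was 13.1 CPM. Protein-coding genes took 90.2% of the reads, processed pseudogenes 2.22% and long intergenic non-coding RNAs 0.336%. Unprocessed pseudogenes took 6.64%, with 5.55% in S5, 8.01% in S6 and 6.36% in S13.

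The mitochondrial genome alone supplied 34.5% ± 3.74 (SD, n = 3) of the reads, 32.0%, 38.8% and 32.6% in the 3 libraries, and 32.3% on average without S6. Its leading transcript was mt-Co1, the catalytic subunit of cytochrome c oxidase, at 109447, 130204 and 114149 CPM, more than 10% of each library. Next came mt-Cytb, the haem-bearing core of complex III, at 38301, 46682 and 41204 CPM. The complex I subunit mt-Nd4 followed at 35754, 41506 and 36766 CPM, and S6 was the highest library for all of these. The ribosomal RNAs mt-Rnr1 and mt-Rnr2 stayed at 14.001 ± 4.19 and 30.9 ± 7.78 CPM in these polyA libraries.

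Almost all of the reads on unprocessed pseudogenes lay on a stretch of chromosome 1 that repeats part of the mitochondrial genome, and they are given here beside the mitochondrial ones. Over that stretch, chr1:24611535-24616197 on the minus strand (GRCm38), the GENCODE vM21 annotation places 7 pseudogenes, and they held 5.53%, 7.99% and 6.34% of the reads. Gm28437 matched mt-Co3 at all 783 bases compared, and their means were 24778 and 24795 CPM. Gm28661 matched mt-Co2, the copper-bearing electron entry subunit of cytochrome c oxidase, at all 681 bases, with 24475 and 25054 CPM. Gm10925 matched mt-Atp6, the proton channel of ATP synthase, at all 678 bases, with 14438 and 15759 CPM. Identity did not always go with an even split. Gm28439 matched mt-Nd4 at all 876 bases compared, but adding its reads moved mt-Nd4 only from 38008 to 38023 CPM. Gm10222 matched mt-Nd4l at all 294 bases, and adding its reads moved mt-Nd4l from 1400 to 1878 CPM. A read inside an identical stretch cannot be assigned to one place, and how such reads were divided is not given in the sources used here. Counted together, mitochondrial genes and these copies made up 37.5%, 46.7% and 39.0% of the reads. The opening 120 coding bases of mt-Nd3 and of its copy are shown because a single position separates them over 345 bases compared. The capital marks it, the difference T3C counted from 1 at the coding start, with the base of mt-Nd3 given before that of Gm28438. The genes lie at chrM:9459-9806 (plus strand) and chr1:24612775-24613119 (minus strand), and the sequences are GENCODE vM21 transcripts.
mt-Nd3: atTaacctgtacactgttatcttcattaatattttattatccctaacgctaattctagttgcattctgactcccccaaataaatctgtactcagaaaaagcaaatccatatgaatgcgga
Gm28438: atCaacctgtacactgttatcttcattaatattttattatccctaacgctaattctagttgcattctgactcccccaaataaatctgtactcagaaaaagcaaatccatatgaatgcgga
Despite that difference, which only the few reads crossing the start can show, mt-Nd3 had 2236, 4931 and 2280.3 CPM and Gm28438 1400.5, 3103 and 1452 CPM.

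With the copies added, the mitochondrial mRNAs were far from equal in number per length, although they come from shared polycistronic precursors. The 3 core subunits of cytochrome c oxidase led, with 76343 ± 7049 CPM per kb for mt-Co1, 72411 ± 13025 for mt-Co2 and 63230.2 ± 11965 for mt-Co3. These neighbours differed by less than their SDs, which measure the spread between libraries. Within each library mt-Co2 stood above mt-Co3, while mt-Co1 stood above mt-Co2 in S5 and S13 and below it in S6. The ATP synthase subunit mt-Atp6 followed at 44342 ± 7775 CPM per kb and mt-Cytb at 36768 ± 3720.1. The complex I subunits ranged widely, from 27842 ± 4039 CPM per kb for mt-Nd1, 27593 ± 2227 for mt-Nd4 and 22114 ± 3156 for mt-Nd2 to 10675 ± 2469.8 for mt-Nd5 and 6323 ± 1543 for mt-Nd4l. mt-Nd6, the mRNA encoded on the opposite strand to the others, stood at 11872 ± 945 CPM per kb, but the strand setting of the counting is not given in the sources used here, so reads of the strand opposite it cannot be told apart. The shortest transcripts were the ones most dependent on the library. mt-Atp8, of 204 bases, had 867, 1704 and 749 CPM and mt-Nd3 3636, 8034 and 3732 CPM with its copy, in both cases highest in S6. The order of the leading mRNAs rested on adding the copies. Without them, on a per-length scale with a common total (TPM, explained below), mt-Co1 led alone at 120630 ± 299. mt-Cytb at 58077 ± 1058 and mt-Co2 at 57592 ± 5231 stood level, above mt-Co3 at 49714 ± 5335. mt-Nd1 at 43872 ± 2428 and mt-Nd4 at 43619 ± 429 then stood above mt-Atp6 at 36409 ± 3890. Which order holds cannot be told, because how shared reads were divided is not given.

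**Figure D1:**
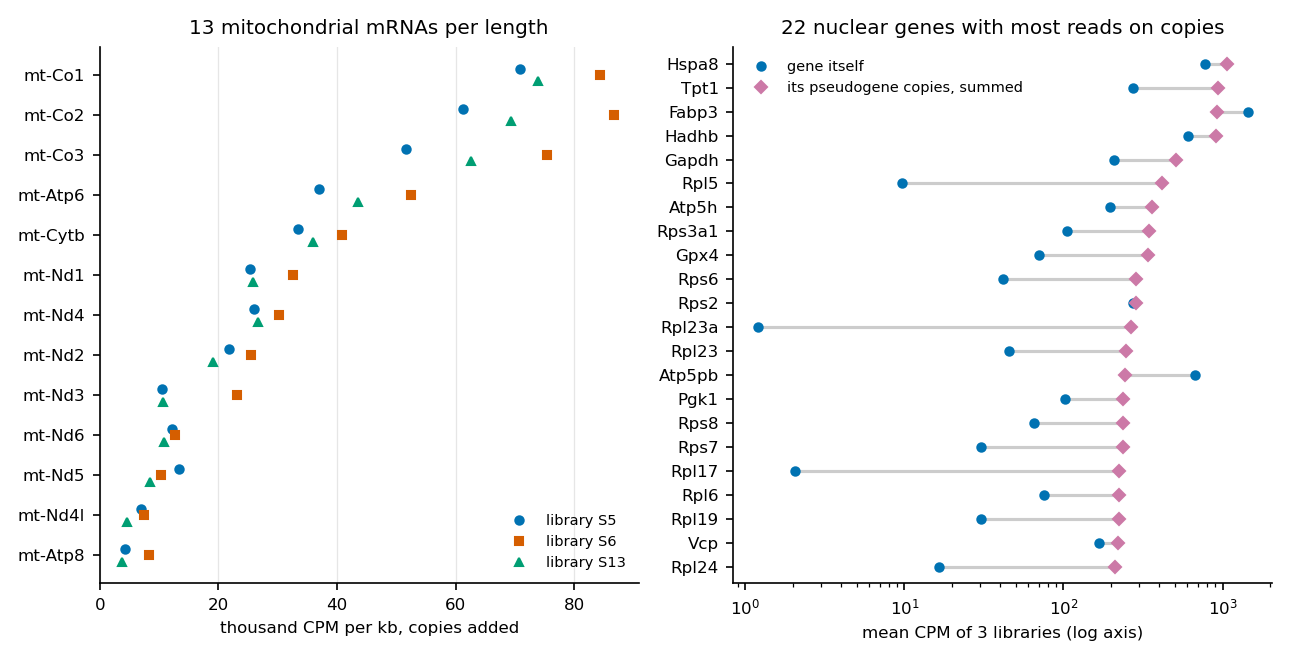
Left, CPM per kb of exon for the 13 mitochondrial mRNAs with the reads of their chromosome 1 copies added, 1 point per library on a linear axis. Right, mean CPM over the 3 libraries for the 22 nuclear genes with most reads on pseudogene copies, with the gene itself as a circle and its copies summed as a diamond on a log axis. S6 lies to the right for most mitochondrial mRNAs, and for Rpl5, Rpl23a and Rpl17 the copies lie far to the right of the gene.

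The same split touched nuclear genes. Of the 946 pseudogenes with a mean of at least 1 CPM, 476 shared at least 50% of their 50-base words with a protein-coding gene, and the 469 that copy nuclear genes held 2.09% ± 0.0966 of the reads. They belong to 375 source genes, of which 119 had more reads on the copies than on the gene. Among the cytosolic ribosomal proteins this held for 52 of 58 source genes. Rpl5, a large-subunit protein that carries 5S RNA, had 9.65 CPM against 413 on its copy Gm15500. Rpl23a had 1.20 CPM against 266 on 4 copies, and Rpl11 4.36 against 191 on 2. Among other genes, Hspa8, the constitutive cytosolic HSP70, had 774 CPM and its copies 1059. The glycolytic enzyme Gapdh, often used as a reference gene, had 207 CPM and its copies 507, and the lipid peroxide reductase Gpx4 had 70.6 and 342. Hadhb, the thiolase subunit of the mitochondrial trifunctional protein, had 607 CPM and its copy 914. The values given under the names Rpl5 and Gapdh alone thus hold the smaller part of the reads assigned to these sequences.

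The opening 120 coding bases of 3 such pairs show how little separates a gene from its processed copy. Gapdh (chr6:125161715-125166467, minus strand) and Gm7336 (chr7:51746647-51747878, plus strand) were identical over 1002 bases. Rpl5 (chr5:107900502-107909005, plus strand) and Gm15500 (chr7:114705217-114706235, minus strand) were identical over 894. Fabp3 (chr4:130308595-130315463, plus strand) and Fabp3-ps1 (chr10:86731987-86732388, minus strand) differed at 3 of 402 bases, 1 of them in the window, A40T counted from 1 at the coding start and set in capitals, the base of Fabp3 given before that of the copy. Coordinates are GRCm38 and sequences are GENCODE vM21 transcripts.
Gapdh and Gm7336: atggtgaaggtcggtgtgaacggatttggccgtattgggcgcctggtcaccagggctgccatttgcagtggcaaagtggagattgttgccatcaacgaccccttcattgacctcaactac
Rpl5 and Gm15500: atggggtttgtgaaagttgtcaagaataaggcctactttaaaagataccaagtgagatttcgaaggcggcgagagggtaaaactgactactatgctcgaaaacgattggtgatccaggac
Fabp3: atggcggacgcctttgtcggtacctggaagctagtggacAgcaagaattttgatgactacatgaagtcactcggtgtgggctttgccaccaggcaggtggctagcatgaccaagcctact
Fabp3-ps1: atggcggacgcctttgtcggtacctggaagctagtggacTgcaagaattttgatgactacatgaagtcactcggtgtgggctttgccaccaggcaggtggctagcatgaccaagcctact
Fabp3 itself had 1477, 1352 and 1475 CPM and Fabp3-ps1 892, 1128 and 758, with S6 lowest for the gene and highest for the copy.

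Outside the mitochondrial genome and its chromosome 1 copies the ranking by reads was headed by the contractile apparatus. Myh6, the α-myosin heavy chain, had 16788, 10019 and 14819.9 CPM, and S6 had the fewest. Mb, the oxygen-storing myoglobin, had 9740.0, 8892 and 10384 CPM. Atp2a2, the SERCA2 pump that returns calcium to the sarcoplasmic reticulum, had 9194, 5829 and 7554 CPM, again with the fewest in S6. Tpm1 (tropomyosin 1) with 7087, 7037 and 7392 CPM and Tnnt2 (cardiac troponin T) with 6686, 6554 and 6991 had coefficients of variation of 2.68% and 3.33%. Myl2, the ventricular regulatory light chain, had 5165, 6737 and 5477 CPM and was highest in S6. Pln, phospholamban, the brake of the SERCA pump, had 5485 ± 330.2 CPM, and Actc1, cardiac α-actin, 5432 ± 1098. The lipase Lpl, which frees fatty acids at the capillary wall, had 4531 ± 326 CPM and was the leading nuclear transcript of lipid supply. Titin (Ttn), the giant spring of the sarcomere, was only the fifteenth nuclear gene by reads, at 2642 ± 198 CPM, despite a coding sequence far longer than any other.

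Per length the order changed, because short transcripts collect few reads. Levels per length are given in transcripts per 1000000 (TPM), from CPM divided by the length of the gene's merged exons and scaled to the same total in each library. On this scale, and again without the chromosome 1 copies, Mb was the leading nuclear gene at 10335 ± 1551 TPM, ahead of Actc1 at 5394 ± 1507 and Myl2 at 4681 ± 243, and Myh6 fell to the fifth place at 3325 ± 1077. Fabp3-ps1 stood between Myl2 and Myh6 at 3626 ± 489 TPM and Tpt1-ps3, a copy of the translationally controlled Tpt1, at 2849 ± 360.2, so 2 of the 8 leading nuclear entries were pseudogenes. Fabp3, the heart fatty acid binding protein, had 2777 ± 369 TPM of its own. The troponins Tnnc1 and Tnni3, which sense calcium and block the actin site, had 2373 ± 58.4 and 2268 ± 211 TPM. Myl3, the ventricular essential light chain, had 2522 ± 439 TPM. Slc25a4, which exchanges ADP and ATP across the inner mitochondrial membrane, had 2084 ± 189 TPM, Atp5o of the ATP synthase stalk 1818 ± 75.03 and the mitochondrial creatine kinase Ckmt2 1392 ± 179.7. Titin stood at 35.9 ± 3.54 TPM. Neighbours in this order were often within their SDs. Actc1 and Myl2 overlapped, as did Myh6 and Pln (3169 ± 456 TPM), whereas Mb lay above Actc1 in each library, at 11088, 8551 and 11366 against 6829.8, 3824 and 5529 TPM. The order below Mb also depended on the length used. With the longest transcript of each gene in place of the merged exons, Myl2 came second at 9388 ± 588 TPM, above Actc1 at 5406 ± 1465, and Tnni3, Myl3 and Tpm1, at 4687, 4184 and 3604 TPM, stood above Myh6 at 3336.

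The reads were then divided among 23 functional classes of 892 genes, each gene counted once, which together covered 56.7% ± 2.33 of the reads. After the mitochondrial genome came the sarcomere and Z-disc with 6.62% ± 0.586 (46 genes), the nuclear-encoded respiratory chain and ATP synthase with 3.22% ± 0.118 (86 genes), calcium handling with 1.78% ± 0.260 (23 genes), and fatty acid uptake and oxidation with 1.77% ± 0.0473 (34 genes). Pyruvate, TCA cycle and ketone use took 1.53% ± 0.158, the oxygen-binding globins, myoglobin included, 1.13% ± 0.141, glucose use 0.814% ± 0.111 and energy transfer 0.812% ± 0.0477. The order of calcium handling and fatty acid use was not fixed. Calcium handling was the larger in S5 and S13, at 2.04%, 1.52% and 1.78%, against 1.82%, 1.74% and 1.74% for fatty acid use, and the smaller in S6. Reads for fatty acid use exceeded those for glucose use in every library, glucose use standing at 0.883%, 0.687% and 0.873%. As shares of reads these figures weigh long transcripts more than short ones. On the per-length scale the sarcomere class held 3.17% and the nuclear respiratory class 3.11% of TPM.

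**Figure D2:**
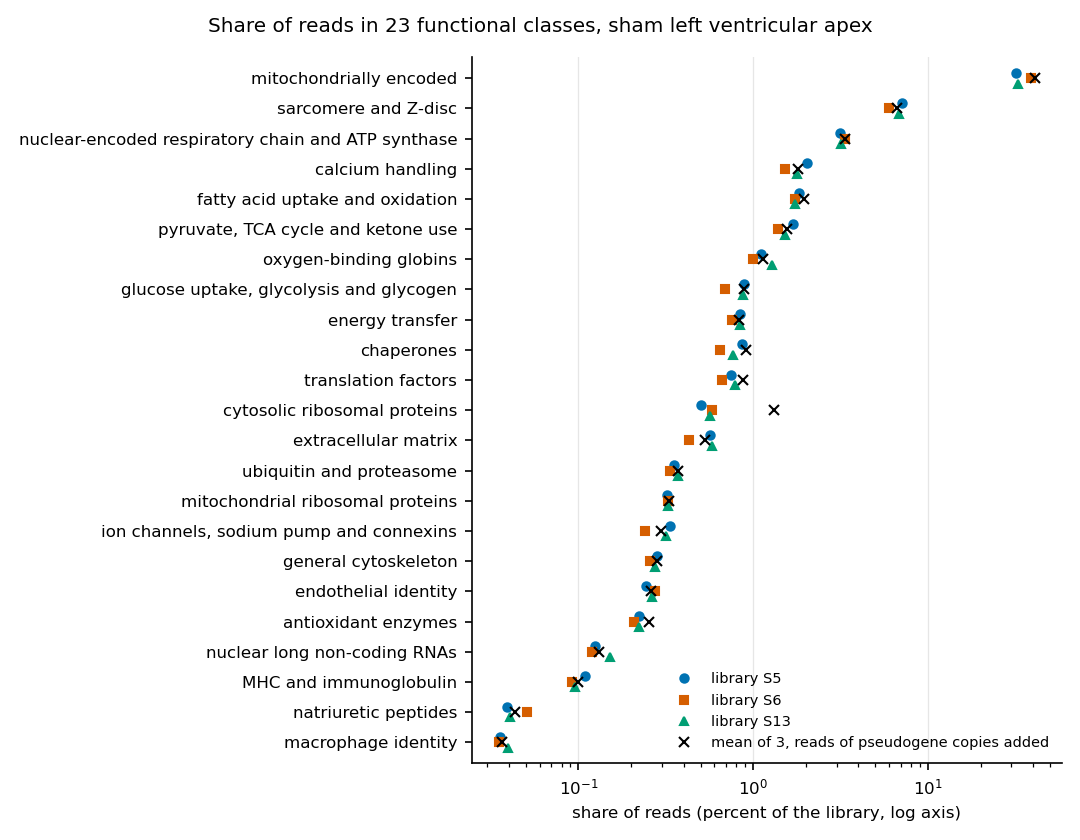
Share of all reads in each of 23 functional classes on a log axis, with 1 point per library and a cross for the 3-library mean after reads of pseudogene copies were added to their source genes. The cross leaves the points clearly for cytosolic ribosomal proteins, whose mean went from 0.547% to 1.32%.

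Genes within a class are ordered here by reads, a scale on which long transcripts weigh more. Within the sarcomere class, Myh6 supplied 21.0% of the reads, Tpm1 10.8%, Tnnt2 10.2%, Myl2 8.75% and Actc1 8.204%. In the calcium class Atp2a2 and Pln prevailed, with 42.3% of its reads on Atp2a2 and 30.8% on Pln. Its next members were Casq2, the calcium store of the sarcoplasmic reticulum, at 820.1 ± 183 CPM, the release channel Ryr2 at 769.8 ± 171, and Hrc, a luminal calcium-binding protein, at 723 ± 84.7. S6 was the lowest library for Atp2a2, Casq2, Ryr2 and Hrc alike. Trdn, triadin, which anchors the release complex, went the other way, at 341, 479 and 373 CPM.

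The nuclear genes of oxidative phosphorylation were led by the catalytic subunits of the ATP synthase, Atp5b at 3420.4 ± 158 and Atp5a1 at 2678 ± 207 CPM. Cox4i1, a nuclear subunit of cytochrome c oxidase, had 1216 ± 54.6 CPM, and Sdha, the flavoprotein of complex II, 1027 ± 135. Of the 84 class members with a mean of at least 1 CPM, the 3 libraries differed by 2-fold or more in 2, against 10.8% of all 13712 such genes. After median-of-ratios scaling they did so in 6, against 7.51% of all genes, a share near the background. The nuclear respiratory class took 3.15% to 3.36% of the reads, while the mitochondrial class ranged from 32.0% to 38.8%. Mitochondrial ribosomal proteins, needed to translate the mitochondrial mRNAs, took 0.324% ± 0.00402 of the reads over 78 genes, all detected, and 0 of the 78 reached a 2-fold range.

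Fatty acid genes were led by Lpl with 25.6% of the class, followed by Cd36, the sarcolemmal fatty acid translocase, at 1629 ± 231 CPM and Fabp3 at 1435 ± 71.5. Among the β-oxidation enzymes, reads came to 890.3 ± 71.0 CPM for Acadm, 844 ± 149.7 for Hadha and 819.5 ± 27.8 for Acadl, the medium-chain dehydrogenase, the trifunctional α-subunit and the long-chain dehydrogenase. In the TCA class, cytosolic malate dehydrogenase Mdh1 led at 1619 ± 113 CPM, with Oxct1, which activates ketone bodies, at 1038 ± 162. Ogdh, the E1 subunit of 2-oxoglutarate dehydrogenase, varied most of the leading members, at 1233, 614 and 1085 CPM. Glucose use was led by Aldoa at 1183 ± 135, Ldhb at 958 ± 45.4 and Eno3 at 879 ± 118 CPM, 3 glycolytic enzymes, while Gapdh stood far lower on its own row than with its copies. Energy transfer was led by Slc25a4, with nearly the same value in each library, at 3111, 3076 and 3069 CPM, with Ckmt2 at 1299 ± 58.5 and the cytosolic creatine kinase Ckm at 1101 ± 211.

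Genes for making and keeping proteins took a modest share. Translation factors had 0.733% ± 0.0655 of the reads, led by Eif4g2, chaperones 0.760% ± 0.108, led without copies by Hsp90ab1 at 1093 ± 179.9 CPM and the small heat shock proteins Hspb7 and Cryab at 974 ± 210.5 and 913 ± 66.7, and the ubiquitin and proteasome genes 0.353% ± 0.0181. With its copies Hspa8 came to 1834 CPM, above Hsp90ab1. Cytosolic ribosomal proteins took 0.547% ± 0.0410 as listed and 1.32% with 106 pseudogene copies added, which is 2.42 times as much. Antioxidant enzymes took 0.218% ± 0.00827, led without copies by the mitochondrial superoxide dismutase Sod2 at 415 ± 45.8 CPM and followed by the peroxiredoxins Prdx5, Prdx3, Prdx2 and Prdx1 between 182 and 222 CPM. Gpx4, with the 70.6 CPM of its own and 342 on its copies given above, would stand near Sod2. The nuclear long non-coding RNAs Neat1 and Malat1, which mark paraspeckles and nuclear speckles, had 687 ± 71.6 and 611 ± 134 CPM.

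The membrane genes of excitation took 0.298% ± 0.0496 of the reads over 104 genes, of which 59 were detected. Among them Gja1, connexin 43 of the gap junctions, had 401 ± 41.1 CPM. Extracellular matrix took 0.526% ± 0.0824 over 95 genes, led by the proteoglycan Dcn at 485 ± 51.9 CPM, Sparc at 456 ± 48.2, Sparcl1 at 429 ± 31.6 and the basement membrane collagen Col4a1 at 348 ± 101. Of these 2 classes, 14 of 56 and 13 of 72 genes were past 2-fold, against 10.8% of all genes. In S5 against S13 alone 1 of 58 and 1 of 73 were, near the 1.8% of all genes. The stress peptides Nppa and Nppb had 187, 304 and 191 and 202, 205 and 215 CPM. Nppa is also on the atrial list and stood at 3670 and 3101 CPM in S19 and S20, so its low level here follows the choice by Myl7.

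Isoform use was compared within families as each member's share of the family's TPM, without the reads on pseudogene copies. For most contractile families 1 gene accounted for nearly everything, and the share hardly moved between libraries. Myh6 made up 98.9% ± 0.0150 of the sarcomeric myosin heavy chains, with 98.9%, 98.95% and 98.9% in the libraries, and Myh7, the slow β-chain of the fetal and loaded rodent heart, 0.727% ± 0.0647. Myl2 made up 99.4% ± 0.107 of regulatory and Myl3 97.8% ± 0.360 of essential light chains, counted together with the non-muscle chains Myl9 and Myl6. The atrial chains Myl7 and Myl4 belong to these 2 families, so the choice of the libraries by Myl7 fixed their small part and these shares are a description of the selection. Tnni3 made up 99.96% ± 0.00659 of troponin I and Tnnt2 99.5% ± 0.0574 of troponin T, with the fetal form Tnni1 at 0.00171% ± 0.00168. Mybpc3 made up 98.8% ± 0.0651 of myosin-binding protein C. Actc1 made up 88.3% ± 2.13 of the 6 actins, with Acta1, the skeletal form, at 3.75%, 3.48% and 6.11% and highest in S13, and the cytoplasmic Actb and Actg1 at 3.42% and 2.94%. Myomesins were the exception, since Myom1 and Myom2, which cross-link myosin at the M-band, shared the family at 52.5% ± 1.68 and 47.2% ± 1.72.

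The myosin shares carry a limit from sequence. Of the 50-base words of Myh6, 20.2% also occur in Myh7, and the longest identical coding run is 245 bases, from base 4246 to 4490 of the Myh6 coding sequence and from 4240 to 4484 of Myh7. Both genes are on the minus strand, at chr14:54941921-54966927 and chr14:54970684-54994626 (GRCm38). A read from this run fits both, and how such reads were divided between Myh6, at 13875 CPM, and Myh7, at 129 CPM, is not given in the sources used here.
Myh6 and Myh7: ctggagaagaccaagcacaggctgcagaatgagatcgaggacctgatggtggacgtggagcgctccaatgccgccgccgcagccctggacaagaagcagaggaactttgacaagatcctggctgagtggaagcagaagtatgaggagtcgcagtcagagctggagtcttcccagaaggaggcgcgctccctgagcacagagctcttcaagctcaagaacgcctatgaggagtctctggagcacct
The run is shown in full as a GENCODE vM21 transcript sequence, identical at every base in the 2 genes.

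In calcium handling the cardiac genes were equally dominant, with Atp2a2 at 99.8% ± 0.0410 of the SERCA pumps, Ryr2 at 99.8% ± 0.0509 of the ryanodine receptors and Casq2 at 98.5% ± 0.1395 of the calsequestrins. The CaM kinase II chains Camk2g and Camk2d stood level at 35.7% ± 1.76 and 34.7% ± 3.68, and Camk2a had 23.3% ± 2.53. This family depends on the length used, because with the longest transcript of each gene in place of the merged exons Camk2d came to 55.99%. The L-type calcium channel was mostly Cacna1c at 83.3% ± 1.83.

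In cytochrome c oxidase the heart and muscle forms Cox6a2 and Cox8b made up 94.2% ± 0.201 of COX6A and 90.2% ± 0.348 of COX8, and the ubiquitous form Cox4i1 made up 98.9% ± 0.150 of COX4. COX7A was more mixed, with 67.4% ± 1.69 for the muscle form Cox7a1 and 32.6% ± 1.69 for Cox7a2. Slc25a4 made up 93.6% ± 0.416 of the adenine nucleotide translocases, Ckmt2 nearly all of the mitochondrial and Ckm 97.8% ± 0.230 of the cytosolic creatine kinases. Vdac1 led the outer membrane channels at 73.3% ± 2.67.

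**Figure D3:**
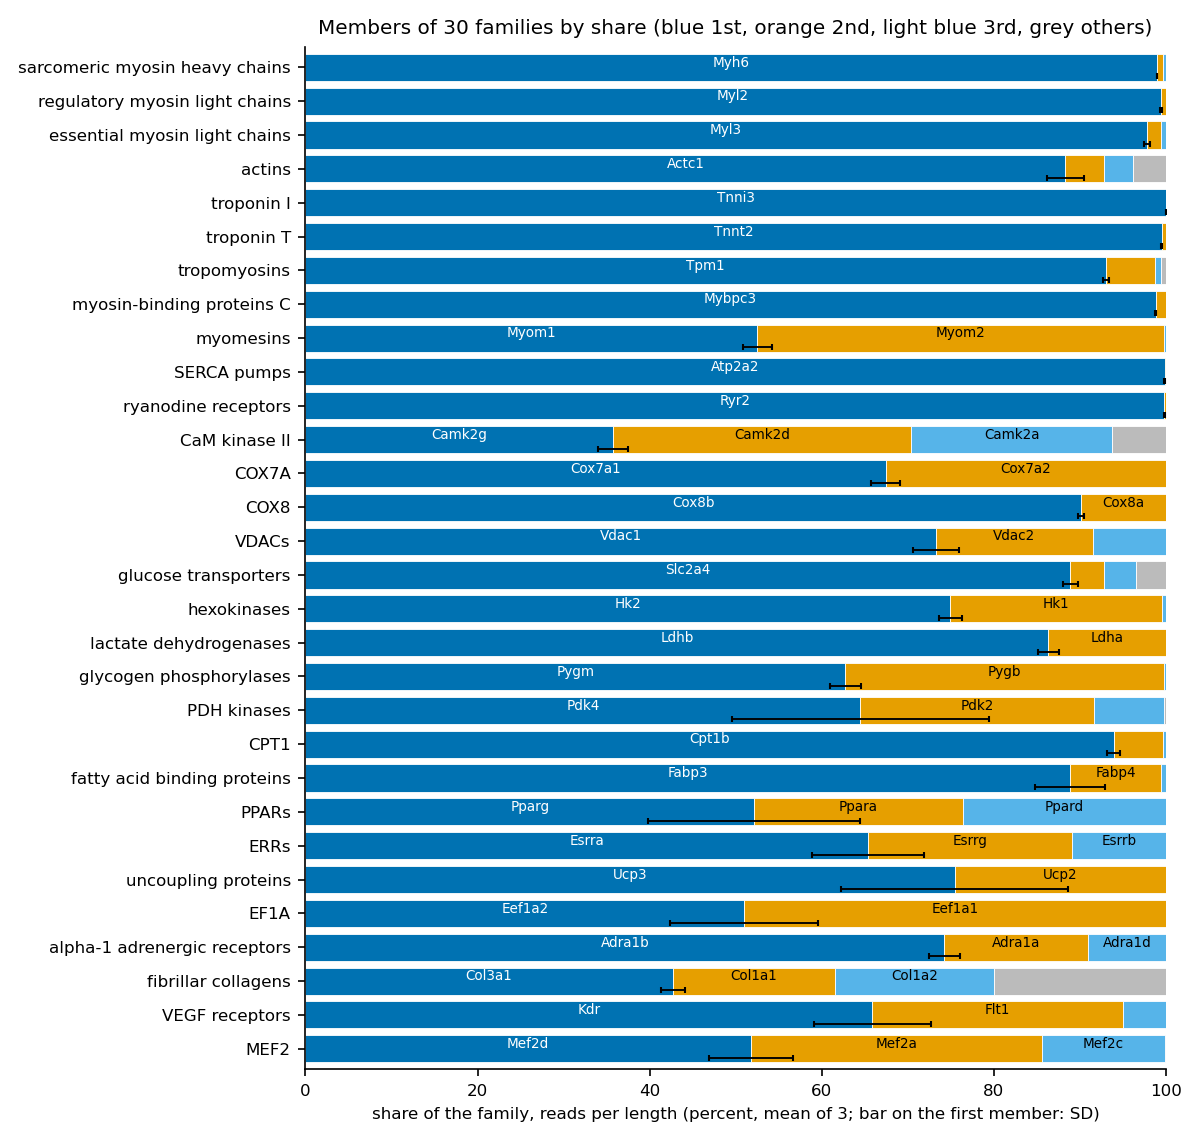
Composition of 30 gene families as the percent of the family's level per length, mean of the 3 libraries, with the members in falling order and an error bar of 1 SD on the leading member. Myosin heavy chain, troponin and SERCA bars are nearly filled by 1 gene, whereas CaM kinase II and myomesins are shared, and the widest error bars are on PDH kinases, uncoupling proteins and PPARs.

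Fuel enzymes followed the same pattern with some sharing. The insulin-responsive transporter Slc2a4 made up 88.9% ± 0.858 of the glucose transporters, Hk2 74.9% ± 1.35 of hexokinases and Hk1 24.6% ± 1.43, Pfkm 93.6% ± 0.381 of phosphofructokinases, Pgam2 93.6% ± 0.2999 of phosphoglycerate mutases and Eno3 98.7% ± 0.204 of enolases. Ldhb, the form that favours lactate use, made up 86.3% ± 1.20 of lactate dehydrogenases against 13.7% ± 1.20 for Ldha. Glycogen phosphorylase was shared between Pygm at 62.7% ± 1.78 and the brain form Pygb at 37.0% ± 1.80. For fatty acids, Cpt1b made up 93.9% ± 0.802 of the carnitine palmitoyltransferases 1, Acsl1 84.0% ± 2.44 of long-chain acyl-CoA synthetases and Acacb, the form whose malonyl-CoA restrains Cpt1b, 97.7% ± 0.377 of acetyl-CoA carboxylases.

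A few metabolic families differed between the libraries, and in several of them S13 was the odd library. Pdk4, the kinase that shuts pyruvate dehydrogenase when fat is burned, made up 69.8%, 76.0% and 47.7% of the PDH kinases and had 722, 676 and 279.8 CPM. Ucp3, a mitochondrial carrier of muscle, made up 83.4%, 82.7% and 60.2% of Ucp2 and Ucp3 together and had 79.2, 70.0 and 28.4 CPM. Angptl4, a secreted inhibitor of Lpl, had 13.7, 12.6 and 1.996 CPM. All 3 were lowest in S13, at less than 50% of the level of either other library, and Pdk2 was correspondingly the larger share there, at 23.2%, 17.7% and 40.6%. Other families were shifted in S6. Ppara, the receptor that drives fatty acid oxidation genes, had 11.6, 3.40 and 9.84 CPM and 31.4%, 14.6% and 26.7% of the PPARs. Eef1a2, the elongation factor of heart, muscle and neurons, made up 57.7%, 41.3% and 53.9% of EF1A (a mean of 43.0% with the longest transcript), and Fabp4 7.89%, 15.2% and 8.63% of the fatty acid binding proteins. The Fabp4 shares leave out the copy Fabp3-ps1, at 892, 1128 and 758 CPM and highest in S6. Adding these reads to Fabp3 would lower the Fabp4 share in each library.

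Receptors and regulators were compared in the same way. The β-adrenergic receptor Adrb1 stood at 7.49 ± 1.66 TPM, and Adra1b made up 74.2% ± 1.83 of the α-1 receptors. Chrm2, the vagal muscarinic receptor, made up 99.4% ± 0.444 of its family, and Adcy6 57.1% ± 1.80 and Adcy5 16.3% ± 1.48 of the adenylyl cyclases. Gata4 led the GATA factors at 65.6% ± 6.07, Mef2d the MEF2 factors at 51.8% ± 4.87 with Mef2a at 33.8% ± 2.64, and Esrra the oestrogen-related receptors at 65.4% ± 6.51 (57.9% in S6). With the longest transcript in place of merged exons Mef2a (48.9%) exceeded Mef2d (31.4%), so that order is not settled. Vegfb and Vegfa shared the VEGF ligands at 57.1% ± 3.55 and 37.7% ± 4.86, and Kdr made up 65.9% ± 6.80 of their receptors.

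The integrin chains addressed by 29P made up small parts of their families in this group, which had received no 29P. Itgav, the αv-chain, had 24.6, 21.4 and 24.0 CPM and made up 5.05% ± 0.681 of the integrin α-chains. Itgb3, the β3-chain, had 1.89, 2.01 and 3.52 CPM, made up 0.343% ± 0.126 of the β-chains and was the highest in S13. The bulk of the β-chains was Itgb1 at 81.2% ± 2.87, with Itgb5, another partner of αv, at 14.4% ± 2.39. Itga6, Itga7 and Itga5, receptors for laminin and fibronectin, were the leading α-chains at 24.8% ± 3.89, 19.97% ± 2.48 and 15.4% ± 2.04.

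Non-myocyte cells were seen through their markers, although in bulk tissue fewer cells of a type and less RNA per cell cannot be told apart. The 11 ventricular cardiomyocyte markers summed to 36980.1, 27472 and 35058 TPM. Apart from red cells, given below, capillary endothelium had the largest sum of the other lists, with all 5 markers detected. It came to 549.7, 669 and 668 TPM. Of this sum Fabp4, the lipid chaperone of capillaries and fat cells, made up 322 ± 89.6 and the water channel Aqp1 220.0 ± 64.8. The lists differ in number and choice of genes, so their sums do not rank cell types. General endothelial markers were all detected, 10 of 10, at 367 ± 84.1 TPM (423, 270 and 407 in the libraries). They were led by Cdh5 at 81.3 ± 20.9 and Pecam1 at 50.1 ± 7.08, the junction proteins of endothelium. Arterial, endocardial and venous, and lymphatic lists were lower, at 25.7 ± 7.89, 13.9 ± 3.35 and 59.7 ± 10.2 TPM, and Prox1 of the lymphatic list is also expressed by cardiomyocytes.

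Pericytes were represented by 8 of 8 markers at 414 ± 87.7 TPM (461, 313 and 469 in the libraries), most of it Rgs5 at 275.8 ± 50.6. Abcc9, a subunit of the ATP-sensitive potassium channel that cardiomyocytes share, added 46.0 ± 13.1. Smooth muscle gave 5 of 5 markers at 88.9 ± 13.2 TPM, including Acta2 at 51.7 ± 11.2 and Myh11 at 8.003 ± 1.58. Fibroblasts gave 9 of 9 markers at 339 ± 43.3 TPM, led by Dcn at 131 ± 12.9, Dpt at 76.9 ± 8.72 and Lum at 55.6 ± 9.004, with the defining Pdgfra at 5.88 ± 0.989 and Tcf21 at 4.52 ± 1.21. Of the markers of activated fibroblasts, Postn had 11.3 ± 1.01 TPM, above Pdgfra and Tcf21. Fap was lower at 1.47 ± 0.461 TPM. Cthrc1 had 0.0421, 0.0447 and 0.238 CPM, below the level of 3 reads in S5 and S6.

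Macrophages were the only leucocytes with a full set of markers, 11 of 11 at 363, 329 and 392 TPM. More than 50% of it was the lysozyme Lyz2 at 210.1 ± 13.5, with the complement genes C1qa and C1qb at 42.7 ± 4.90 and 48.7 ± 7.43, and the lineage receptor Csf1r at 9.998 ± 3.60. Timd4 and Cd163, of long-lived resident cells, stood at 1.45 ± 0.533 and 4.77 ± 0.812 TPM and the monocyte receptor Ccr2 at 1.24 ± 0.537. Lymphocytes were near the limit of detection. T cells gave 0 of 7 markers at 0.5 CPM in all 3 libraries, NK cells 0 of 3, neutrophils 0 of 3 analysed, and B cells 3 of 5, with Ighm at 10.6, 7.79 and 9.84 CPM. Mast cells gave 1 of 4, Cpa3 at 0.547, 0.716 and 0.618 CPM, and monocytes, dendritic cells and Schwann cells 1 of 3, 1 of 4 and 1 of 4. Platelets gave 2 of 4 markers at 27.8 ± 6.57 TPM.

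Markers of tissues that could be carried along at dissection were absent or nearly so. White fat gave 0 of 5 markers analysed, with Adipoq listed at 0 in S5, S6 and S13, and liver 0 of 3, while lung markers were not analysed here. Of the epicardial list Upk1b and Muc16 were listed at 0 and only Wt1, also found in some endothelial and stromal cells, was detected at 4.12, 3.98 and 5.09 CPM. Cidea, listed for brown fat, was detected at 16.4, 15.6 and 15.9 CPM, while Ucp1 and Elovl3 were not analysed here. Skeletal muscle gave 1 of 6 markers analysed, Tnni2 at 0.673, 1.03 and 0.856 CPM. Of the conduction list Hcn4, Irx3 and Tbx3 were detected, with Isl1 listed at 0 and Cntn2, a marker of Purkinje fibres, at 4.08, 0.134 and 2.09 CPM. Red cell transcripts were abundant and uneven, with a sum of 3052, 2217 and 5423 TPM.

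**Figure D4:**
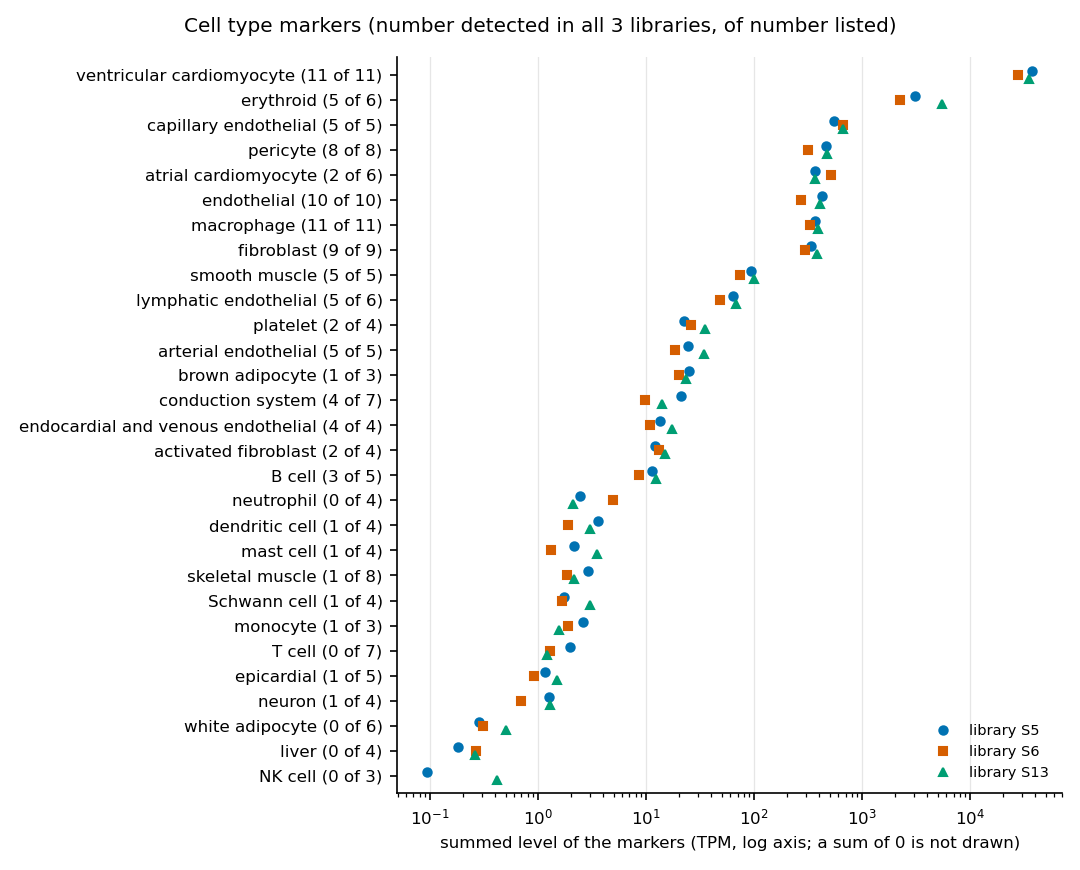
Summed level of the markers of each cell type in TPM on a log axis, with 1 point per library and, in brackets, how many of the listed markers reached 0.5 CPM in all 3 libraries. Ventricular cardiomyocyte markers lie at 27472 to 36980.1 TPM, capillary, pericyte, endothelial, macrophage and fibroblast lists between 270 and 669 TPM, and T cell, NK cell, white fat and liver lists below 2 TPM.

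Most genes were steady from library to library. Among 13712 genes with a mean of at least 1 CPM, the median ratio of the highest to the lowest library was 1.39 (of CPM + 0.1) and the median coefficient of variation 17.1%. A 2-fold range was reached by 1486 genes, 10.8%, and a 5-fold range by 52. S6 was the lowest library in 76.5% of the 1486 and the highest in 13.5%. After median-of-ratios scaling 1029 genes (7.51%) remained past 2-fold, S6 being lowest in 44.6% and highest in 40.7%. Without S6, 249 genes were past it, 1.8% of 13809.

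Clock genes, whose levels cycle over the day in most tissues, went past 2-fold in 10 of 17 cases, against the 10.8% of all genes, and in 9 of 17 between S5 and S13 alone, against 1.8%. The activators and the genes they switch on ran in opposite directions. Arntl, the core activator BMAL1, had 13.5, 4.30 and 2.14 CPM and its partner Npas2 4.21, 0.626 and 1.09, both highest in S5, as was Clock at 57.8, 35.6 and 34.1. The repressors Per1, Per2 and Per3 had 8.62, 20.45 and 47.6, 5.13, 8.95 and 31.7 and 12.7, 14.6 and 43.5 CPM, lowest in S5 and highest in S13. The output factors Dbp, Tef and Hlf had 43.6, 54.5 and 124, 77.8, 73.5 and 171 and 15.2, 18.03 and 46.9 CPM, and the repressor Ciart 2.19, 4.14 and 14.5, all highest in S13. Cry1, Cry2, Nr1d1 and Nr1d2, further repressors, were also highest in S13 but by less than 2-fold, with Nr1d1 at 74.4, 42.7 and 81.8 CPM. Bhlhe40 was past 2-fold and highest in S13, at 43.0, 35.0 and 72.7 CPM, and Bhlhe41 was highest there by less. Nfil3 went the other way, highest in S5 at 8.45, 6.18 and 6.37 CPM.

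Immediate-early genes, which answer stimuli within minutes, went past 2-fold in 11 of 22 cases, against 10.8% of all genes, and in 9 of 22 between S5 and S13, against 1.8%. S13 was the highest library in 10 of the 11 and S6 in the other. Fos and Fosb, which form the AP-1 factor with Jun, had 8.50, 24.0 and 26.1 and 1.22, 0.716 and 5.23 CPM, Nr4a1 and Nr4a3, orphan nuclear receptors, 12.9, 31.0 and 40.2 and 1.93, 2.64 and 8.79, and the endothelial factors Klf2 and Klf4 30.2, 54.7 and 77.8 and 35.3, 77.8 and 101. Egr1 did not share this, at 80.6, 97.9 and 82.6 CPM. The heat shock genes Hspa1a, Hspa1b and Dnajb1 were also highest in S13, at 3.22, 1.53 and 28.0, 1.997, 3.09 and 26.6 and 12.3, 16.8 and 39.5 CPM. They were the only 3 of 18 in their list past 2-fold, a number not far from the 10.8% of all genes. Between S5 and S13 alone the count was again 3 of 18, against 1.8% of all genes. After median-of-ratios scaling it was 3 of 18 as well, against 7.51%. Hspa1a and Hspa1b are near-identical neighbours, so the split between them is uncertain.

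**Figure D5:**
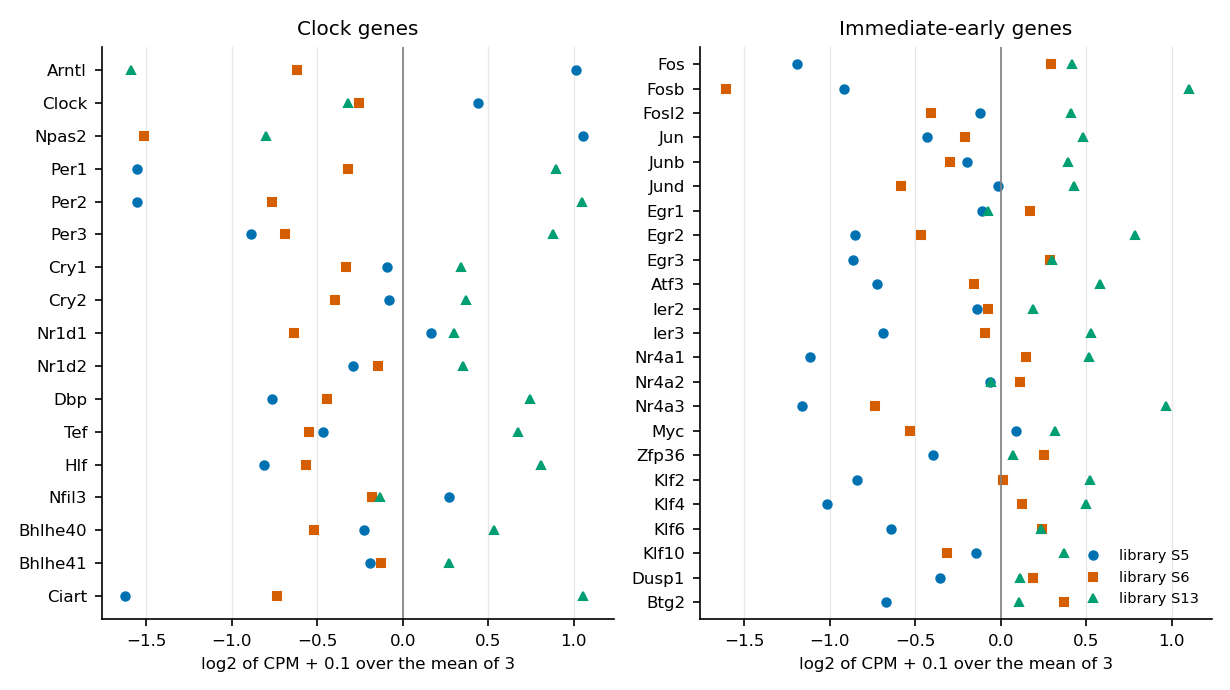
Level of 17 clock and 23 immediate-early genes in each library as log2 of CPM + 0.1 over that of the 3-library mean. In the clock panel S5 lies to the right for Arntl, Clock and Npas2 and S13 to the right for the Per genes, Dbp, Tef, Hlf and Ciart, and in the other panel S13 lies to the right and S5 to the left for most genes.

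Glucocorticoid-responsive genes went past 2-fold in 5 of 10 cases, against 10.8% of all genes, without a common direction. They did so in 3 of 10 without S6, against 1.8% of all genes, and in 7 after median-of-ratios scaling, against 7.51%. Tsc22d3, the anti-inflammatory GILZ, had 42.0, 70.3 and 98.8 CPM and the transcription factor Zbtb16 15.7, 5.10 and 16.7, both highest in S13. The metallothionein Mt2, which binds zinc, had 7.35, 29.6 and 12.4 CPM, highest in S6, and the other members past 2-fold were Pdk4 and Angptl4, given above. The chaperone Fkbp5 had 9.38, 9.93 and 12.2 CPM. The adult haemoglobin genes were highest in S13 for all 4 genes. Hba-a1 at 211, 145 and 405 and Hba-a2 at 384, 321 and 728 CPM were past 2-fold, and Hbb-bs at 630.4, 577 and 1129 and Hbb-bt at 94.5, 90.6 and 176 were not. Between S5 and S13 alone 0 of the 4 were past it, and after scaling 1 was. Also highest in S13 was Alas2, an enzyme of haem synthesis in red cells, at 13.9, 12.5 and 25.2 CPM. The near-identical α-globin genes share most of their sequence, and the part of retained blood in S13 was not tested. The interferon-stimulated genes gave 0 of 14 past 2-fold, with Ifit3 at 22.998, 24.2 and 16.5 and Irf7 at 14.8, 9.93 and 10.4 CPM, and cell cycle genes 1 of 10, with the proliferation marker Mki67 at 13.04, 12.4 and 8.94. The ventricular stress genes, among them Nppa, whose level follows the choice by Myl7, gave 1 of 5. This was Acta1 at 256, 161 and 369 CPM, while Ankrd1, the stretch-sensing repeat protein, had 1447, 1381 and 1466. With so few genes these counts do not stand apart from the 10.8% of all genes. The cell cycle and stress calls fell to 0 without S6 and after scaling, and scaling gave 1 interferon-stimulated gene.

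Of single genes with a mean of at least 5 CPM, the largest ratios belonged to Hspa1a (17.2), the ribosomal pseudogene Rpl17-ps5 (13.4), Hspa1b (12.7), Rad9b (7.29) and Angptl4 (6.57), after which came 4 clock genes, Ciart, Per2, Arntl and Per1. Among the leading 20, genes that were lowest in S6 included the kinase Hipk2 at 21.6, 4.64 and 10.3, the phosphatase subunit Ankrd52 at 38.2, 8.68 and 23.002 CPM and the adenylyl cyclase Adcy9 at 13.3, 3.04 and 7.03, and genes highest in S6 included the small non-coding RNA Bc1 at 32.5, 154 and 37.9 and the DNA checkpoint gene Rad9b at 2.12, 16.1 and 3.22. Irs2, the insulin receptor substrate, was highest in S13 at 5.26, 3.31 and 15.1 CPM.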

How the data were processed

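Per the methods of the authors, Partek Flow ran the aligner STAR (2.3.7) on the polyA RNA reads against mm10. They annotated the alignments with the release they name Genocode 25 and deposited CPM (counts per 1000000 reads) plus 0.0001 for 21798 genes. The counting tool, its strand setting, its treatment of reads that fit several places and any gene filter are not given in the sources used here. The constant was removed. The study speaks of a library as the sample of a mouse, and SDs are the spread between libraries. Depth was 21.0 to 23.8 times 1000000 reads from the step between low values. Libraries, gene lists and classes were chosen with earlier results of these data known. No test was therefore made beyond the outlier screen given below, and counts are descriptive.

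A gene was detected at 0.5 CPM. TPM was CPM per kb of merged exons (GENCODE vM21, GRCm38, lengths for 21762 genes) scaled to a common total. Pseudogenes with a mean of at least 1 CPM were matched to a protein-coding gene when at least 50% of their 50-base words occurred in it; counting their reads with that gene was added after the data were seen, and copies annotated as protein-coding were not matched. Ranges used CPM + 0.1 in genes with a mean of at least 1 CPM.

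Named genes were the 30 highest by CPM, the 20 highest per length, up to 6 per class, all members of the families, marker lists and variable lists, the 20 largest ranges at 5 CPM or more, Itgav, Itgb3 and Myl7; the pseudogene copies and a few further class members were named after their values were seen. A few genes are not reported here. Alternatives were each library left out, all 5 Sham Veh libraries, other totals, limits, constants, scaling and lengths. The depth estimate, range counts and per-length levels were tested on simulated data. Unlike the real libraries, the simulated ones held whole read counts and no spread between mice apart from planted changes. The simulation therefore covers the calculations only. Scripts ran in Python 3.11.15, tables in pandas 2.3.3 over numpy 2.4.6, rank correlations in scipy 1.17.1 and plots in matplotlib 3.10.9.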

Additional observations from a re-analysis of the deposited data

Results flagged for a closer look

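Each class share, each leading family share and each summed marker list was screened over the 5 Sham Veh libraries, S19 and S20 included. A library was flagged when its distance from its nearest neighbour took up more than 0.71 of the range. Of 117 values, 6 had such a library, close to the 5.9 expected by chance at 1 in 20. Fatty acid genes held 1.41% of the reads in S19 against 1.74% to 1.82% elsewhere, and mitochondrial ribosomal proteins 0.357% in S20 against 0.319% to 0.327%. Esrra made up 57.9% of the oestrogen-related receptors in S6 against 68.1% to 70.0%, and Vegfb 53.0% of the VEGF ligands in S5 against 58.5% to 59.9%. NK cell markers summed to 0.418 TPM in S13 against 0 to 0.111, all at the level of a few reads. White adipocyte markers summed to 24.5 TPM in S20 against 0.286 to 3.54.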

How the results depend on the processing

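No paired analysis was possible because the labels give each library its own number and no comparison between groups was made. Of 13 main results, leaving out each library in turn gave 14292 to 14597 detected genes, 28 to 56 genes for 50% of the reads (56 without S6), and 249 to 984 genes with a 2-fold range (249 without S6, 893 without S5, 984 without S13). It gave 32.3% to 35.7% mitochondrially encoded reads, 6.38% to 6.95% for the sarcomere and 0.532% to 0.570% for cytosolic ribosomal proteins, 98.9% for Myh6, 87.3% to 89.4% for Actc1 and 99.8% to 99.9% for Atp2a2 in their families, 9819 to 11227 TPM for Mb and 2868 to 3919 for Myh6, and sums of 338 to 415 TPM for endothelial and 317 to 360.4 for fibroblast markers. With all 5 Sham Veh libraries cytosolic ribosomal proteins held 0.605%, Myh6 made up 98.9% of its family, fibroblast markers summed to 409 TPM and 3230 genes had a 2-fold range. Without mitochondrially encoded reads in the total, 424 genes held 50%, the sarcomere 10.1% and cytosolic ribosomal proteins 0.838%. With pseudogene copies counted with their source, mitochondrially encoded genes held 41.1% and cytosolic ribosomal proteins 1.32%. Without length correction Myh6 made up 98.7% and Actc1 84.8% of their families, and with the longest transcript Myh6 made up 98.8% and Mb stood at 12753 TPM. The 2-fold count was 765 with a constant of 1, 419 from a mean of 10 CPM and 5038 without a filter. Of the other values per length, 36 moved past their SD with the longest transcript and 29 did not, and without length correction 49 moved and 16 did not. Low genes are limited by depth, since 3 reads stand for 0.126 to 0.143 CPM, and no interval for counting error could be had without read counts.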

Other observations

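Collagen and laminin composition of the sham apex was also described per length. Col3a1 led the fibrillar collagens at 42.7% ± 1.37, with Col1a1 at 18.9% ± 2.36 and Col1a2 at 18.5% ± 1.69, and Col5a1, which nucleates fibrils, at 7.93% ± 0.477. In the basement membrane, Col4a1 and Col4a2, which form the common collagen IV heterotrimer, made up 54.8% ± 2.28 and 38.7% ± 2.52. Laminin α-chains were divided among Lama4 of vessels at 42.8% ± 3.15, Lama2 of muscle at 32.9% ± 0.805 and Lama5 at 22.9% ± 3.98, while Lamc1 made up 95.9% ± 1.15 of the γ-chains and Lamb2 70.0% ± 2.03 of the β-chains. By CPM, Col1a1 had 72.01, 36.2 and 64.7 and Col3a1 219, 148 and 204, lowest in S6 for both.

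MHC and immunoglobulin genes together took 0.0989% ± 0.00937 of the reads, led by B2m, the shared light chain of MHC class I, at 257, 318 and 213 CPM, with H2-D1 at 169 ± 21.2 and H2-K1 at 133 ± 20.45. Cd74, the invariant chain of MHC class II, had 119, 66.1 and 102 CPM and H2-Aa 60.4, 43.7 and 53.4. In the general cytoskeleton Tmsb4x, which sequesters actin monomers, led at 373, 584 and 477 CPM, followed by Tuba4a at 501, 299 and 333. Hspa5, the chaperone of the endoplasmic reticulum, had 888, 506 and 459.6 CPM, highest in S5.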
